A study of Mus musculus with 86 samples.

Results

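The dense SOX2 clusters described here are stretches of the mouse genome in which many SOX2 regions lie close together in cycling embryonic stem cells. Overlapping peaks of the 2 asynchronous SOX2 libraries were joined, and the 51672 joined regions that both libraries support were retained. Regions with less than 12500 bp from the end of one to the start of the next were then stitched into 29316 loci. The clusters are the 894 loci with 6 or more regions, and they hold 7139 of the SOX2 regions (13.8%). Because the asynchronous SOX2 lists chose them, all that is said below about their SOX2 density and asynchronous strength is a description with no test. The mitotic SOX2 lists and all CTCF lists played no part in the choice. The cells are mouse embryonic stem cells of strain 129S5/SvEvBrd, grown in serum with mLIF. Asynchronous cultures were compared with mitotic cells that had been treated with 100 ng/ml nocodazole, which stops cells in mitosis by blocking microtubules, for 6 h and then shaken off. Chromatin immunoprecipitation with sequencing was done for SOX2 (antibody AF2018) and for CTCF (antibody ab70303), with 2 asynchronous and 2 mitotic libraries of each. Of the 86 libraries of the series, these 8 were used. The mitotic cells are a drug-arrested population. The labels do not tell whether replicates were separate cultures, so the p-values given below measure only how these libraries vary, which can be technical variation.

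SOX2 is an HMG-box transcription factor that binds DNA together with OCT4 at enhancers of the pluripotency network. In embryonic stem cells, sites of these factors gather in long groups called super-enhancers, which are usually defined by stitching nearby enhancers and ranking them by Mediator or active histone marks, and which lie near genes of cell identity. CTCF is a zinc finger protein that blocks cohesin at loop anchors and often marks the borders of insulated neighborhoods around such genes. In mitosis most transcription stops and many factors leave the chromosomes, and factors that stay at some sites are said to bookmark them. Mediator and histone mark signals were not analysed here, so the loci are called dense clusters and not super-enhancers.

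Sequences at 4 genes inside the clusters are shown first, because the results below return to them. Each promoter is the 250 bases before the start of transcription, from the RefSeq promoter table on GRCm38.p6 (the assembly of mm10), written 5′ to 3′ on the gene's strand. Capitals mark the letters ATTTGCA, which are TGCAAAT on the other strand and form most of the octamer that OCT4 and other POU factors read, or, for Hoxb1 alone, the 89 bases under the peak of mitotic SOX2 replicate 2. Pou5f1 encodes OCT4, and its promoter (17:35505782-35506031, plus strand) had the strongest cluster region on it among the genes named here. It held no copy of AACAATG, a SOX motif, or of TGCAAAT on either strand. The promoters of H2bc6, a replication-dependent histone H2B gene (13:23585971-23586220, minus strand), of Zfp42, which encodes the pluripotency marker REX1 (8:43307010-43307259, minus strand), and of Hoxb1, a homeobox gene of anterior patterning (11:96365508-96365757, plus strand), were picked after their values were seen.
Pou5f1: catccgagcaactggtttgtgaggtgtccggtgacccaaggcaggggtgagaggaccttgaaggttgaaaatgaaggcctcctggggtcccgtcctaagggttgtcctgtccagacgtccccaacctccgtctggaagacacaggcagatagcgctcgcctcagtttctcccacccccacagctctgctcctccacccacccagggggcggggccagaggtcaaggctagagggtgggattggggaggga
H2bc6: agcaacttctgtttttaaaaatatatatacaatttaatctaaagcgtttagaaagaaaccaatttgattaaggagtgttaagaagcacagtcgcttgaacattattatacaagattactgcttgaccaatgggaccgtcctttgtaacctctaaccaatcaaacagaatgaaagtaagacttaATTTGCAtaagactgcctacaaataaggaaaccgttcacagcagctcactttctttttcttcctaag
Zfp42: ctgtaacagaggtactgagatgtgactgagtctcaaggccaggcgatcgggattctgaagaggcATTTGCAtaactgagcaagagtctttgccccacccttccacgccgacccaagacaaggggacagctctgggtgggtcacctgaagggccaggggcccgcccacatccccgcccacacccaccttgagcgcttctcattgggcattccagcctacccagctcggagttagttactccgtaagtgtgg
Hoxb1: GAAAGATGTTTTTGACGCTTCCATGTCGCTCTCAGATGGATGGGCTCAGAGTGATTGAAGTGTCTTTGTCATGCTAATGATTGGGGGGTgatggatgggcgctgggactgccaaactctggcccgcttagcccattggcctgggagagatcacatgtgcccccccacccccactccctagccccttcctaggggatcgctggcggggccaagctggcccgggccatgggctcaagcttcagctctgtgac
The octamer letters began 67 bases before the start of H2bc6 and 186 bases before that of Zfp42. Among 1047 promoters (300 bases, 250 before to 50 after the start) on SOX2 regions of clusters, 5.25% held TGCAAAT on either strand (95% Wilson interval 4.06 to 6.78), against 4.02% of all 32851 promoters of the table. AACAATG was found in 2.58% (1.78 to 3.73), against 3.78% of all promoters. Among 7123 promoters on other SOX2 regions, TGCAAAT was found in 3.58% and AACAATG in 3.17%. A match of letters is a description and not a bound site.

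The microRNA genes of the miR-290 to miR-295 family are among the most abundant of mouse embryonic stem cells, and the table's hairpins of this family lay inside 1 cluster of 12 regions (7:3191622-3228771). Mature sequences are shown with the seed, bases 2 to 8, in capitals, from the RefSeq table on GRCm38.p6. The seed AAGUGCU is shared by 3 of them, and miR-290a-3p and miR-291b-3p have the seeds AAGUGCC and AAGUGCA.
miR-291a-3p: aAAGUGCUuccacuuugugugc
miR-294-3p: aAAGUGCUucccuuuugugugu
miR-295-3p: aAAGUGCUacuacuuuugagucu
miR-290a-3p: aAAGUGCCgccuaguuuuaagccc
miR-291b-3p: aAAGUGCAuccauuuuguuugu
Of the 12 regions there, mitotic SOX2 replicate 1 called 1 (7:3192802-3194311), near the end of the cluster away from the hairpins, with a fold enrichment of 3.53 where the asynchronous libraries had 23.7 and 23.2. Replicate 2 called none. In all, 66 of 1005 microRNA hairpins of the table lay in 51 of the clusters. Of protein-coding genes, 1322 of 21887 (6.04%) overlapped a cluster, which is a similar share.

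The lists held 90266 and 63504 asynchronous and 1976 and 408 mitotic SOX2 peaks, and 67995 to 68328 asynchronous and 15338 to 20142 mitotic CTCF peaks. Depth is given here as background coverage per 100 bp, solved from the deposited fold and −log10 p-value of about 500 peaks a list. It was 1.61 to 2.62 reads for SOX2 and 3.36 to 3.77 for CTCF, and replicate 2 was the shallower SOX2 library in both conditions. Inside the clusters lay 9852 and 8559 asynchronous SOX2 peaks, of which 76.0% and 95.03% fell in reproducible regions, so replicate 1 also called many peaks there that replicate 2 did not. All intervals below are 95% Wilson intervals, which cover counting error only.

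The clusters were long groups of mostly ordinary SOX2 regions. They were 5.87 to 107 kb long (median 33.7 kb), covered 32.6 Mb in all, and held 6 to 24 regions. There were 320 clusters of 6 regions, 205 of 7, and 61 of 13 or more. Fold enrichment is the authors' value at a peak's summit over its local background, and strength is a region's percentile rank by fold, taken in each asynchronous library and averaged. By that measure the single regions of clusters were not strong. Their median strength was 44.3, against 50.02 for loci of 1 region and 46.6 for loci of 2 to 5 regions, and their median folds were 5.05 and 4.72. The strongest region of each cluster had a median strength of 90.0, the second 75.3, the third 61.9 and the rest 28.7. The highest of 6 or more ranks is bound to be high in any grouping, so these values do not set clusters apart. Cluster regions were wider, with a median of 769 bp against 606.5 bp in loci of 1 region. At the threshold, the 609 loci of 5 regions just outside had a median length of 22.0 kb and a median mean strength of 49.8, and the 320 loci of 6 regions just inside had 26.5 kb and 48.3. The strongest locus of 5 regions lay at Glod5 on chromosome X (X:7993656-8020903, mean strength 88.5), and the strongest of 6 at Snapc3 (4:83413756-83451148, mean strength 80.3).

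Clusters were spread over the autosomes and nearly lacking on chromosome X. Chromosome 11 held 90 of them, with 19.4% of its SOX2 regions, the highest share. Among the other autosomes the share was between 9.76% on chromosome 1 and 18.2% on chromosome 17. Chromosome X held 2 clusters with 15 of its 997 regions (1.505%).

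The 10 clusters with the most regions held 18 to 24 each. The one with the most, 24 regions over 107 kb (13:23488694-23596103), overlapped 16 protein-coding genes, among them H2bc6, H4c4, H3c6, H2ac8 and H1f3 of the main histone gene array, and Btn2a2, a butyrophilin gene. The next, 23 regions over 87.1 kb (13:44668951-44756065), ran from outside Jarid2 into it. JARID2 recruits the Polycomb repressive complex PRC2. Clusters of 22 and 19 regions lay side by side at Lrrc74a (12:86760991-86837090) and at Irf2bpl and Cipc (12:86867134-86947338). Cbx7, a chromobox subunit of PRC1, had 21 regions (15:79868839-79971404), Usp7, a deubiquitinase, 19 regions (16:8723774-8811280), and Tgif1, a repressor of TGF-β signalling, 19 regions (17:70827087-70925653). The Hoxb cluster from Hoxb1 to Hoxb9 had 18 regions (11:96271034-96375524), as did the stretch of Btbd9, Glo1 and Dnah8 (17:30575534-30673249) and the clustered protocadherin genes of the gamma group (18:37720209-37785255).

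**Figure D1:**
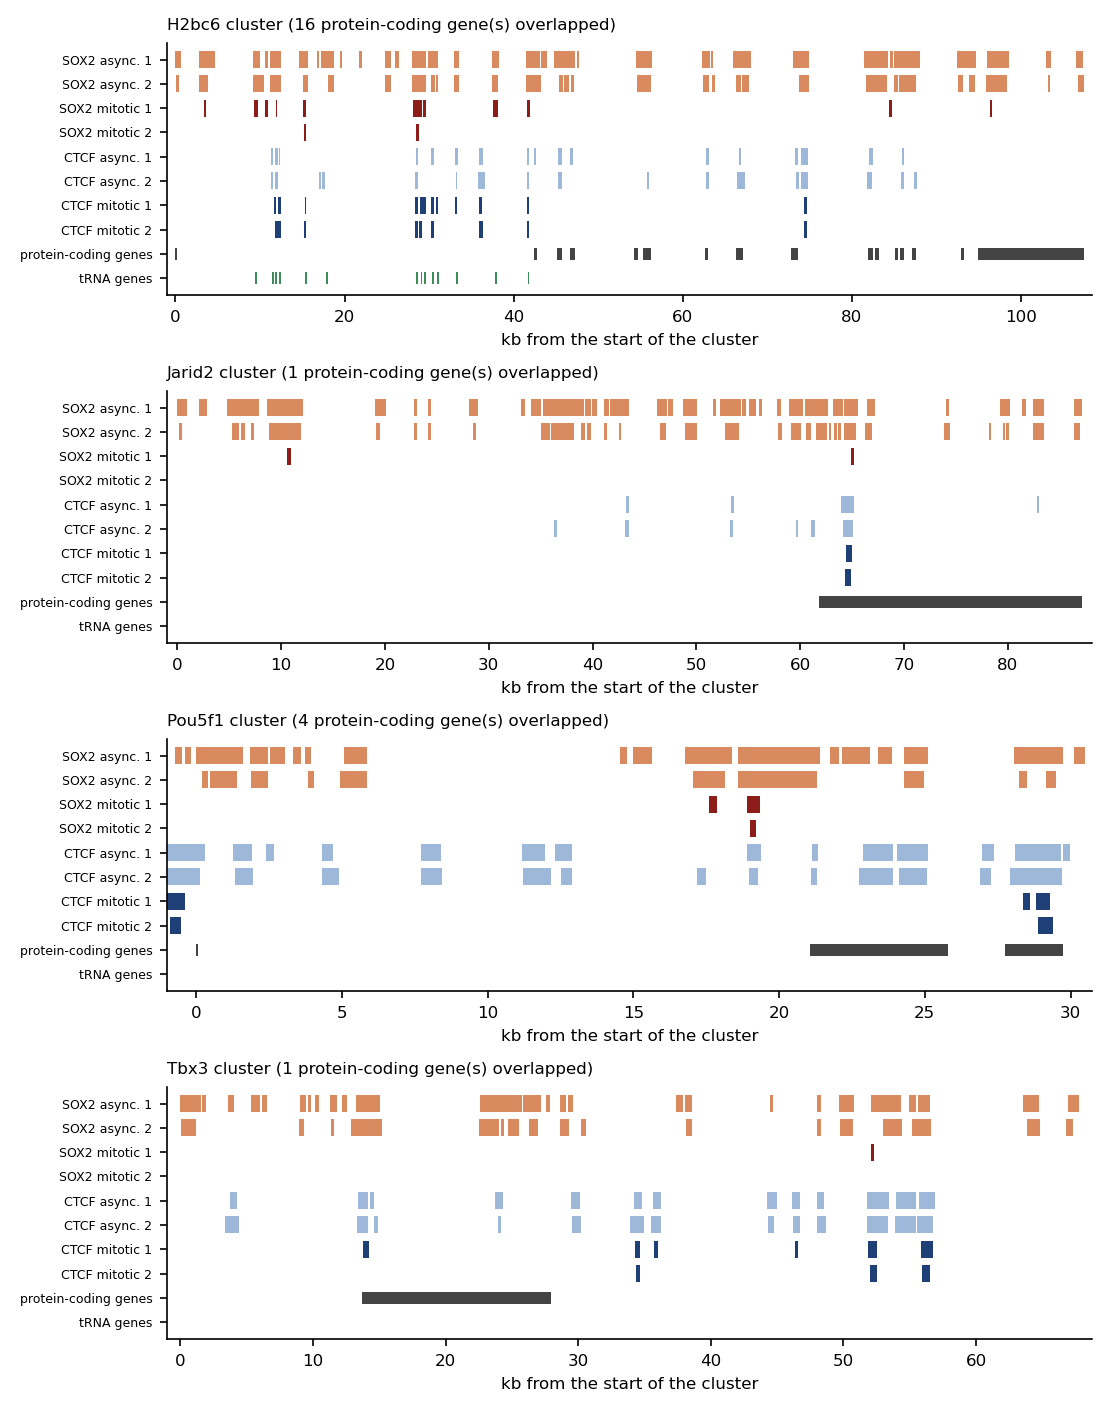
Peaks of the 8 libraries in the clusters at H2bc6, Jarid2, Pou5f1 and Tbx3, plotted in kb from the start of each cluster, with 1 row per library (SOX2 in orange and dark red, CTCF in light and dark blue, for asynchronous and mitotic cells) and rows for protein-coding and tRNA genes. Bars are peaks as deposited; at H2bc6 most mitotic peaks of both factors sit in the left part with the tRNA genes, and at Jarid2 replicate 1 has the only 2 mitotic SOX2 peaks.

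Most clusters lay on genes. Of the 894, 753 (84.2%, 81.7 to 86.5) overlapped a protein-coding gene, 638 (71.4%) held the end of one, 120 (13.4%) lay whole inside 1 gene body, and 40 overlapped 5 or more genes. Among all stitched loci, 57.8% overlapped a protein-coding gene and 20.9% held the end of one. In loci of 2 to 5 regions it was 67.3% and 37.3%. Clusters are longer than other loci, so their shares are bound to be higher. Of the 141 clusters that overlapped none, 105 had one within 50 kb. Within the clusters, 19.0% of the regions lay within 1 kb of a protein-coding gene end, against 18.1% of all SOX2 regions. A share of 44.6% lay outside protein-coding genes, against 43.5%. The place of single regions was therefore close to that of SOX2 regions in general.

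Genes of the pluripotency network and of known super-enhancers often had a cluster within 50 kb. A cluster lay there for 12.4% of all protein-coding genes (2716 of 21887), for 17 of 30 pluripotency genes (56.7%, 39.2 to 72.6) and for 21 of 30 genes known for super-enhancers in these cells (70.0%, 52.1 to 83.3). The lists share genes and were chosen with earlier results of these data known, so these are counts and not tests. Tbx3, a T-box factor of naive pluripotency, had 2 clusters with 24 regions, the larger of 14 (5:119656796-119724540). Mycn, a MYC-family gene, lay in a cluster of 14 regions (12:12871281-12947211), Sox2 itself in one of 12 (3:34639333-34671497), Dppa5a in one of 12 (9:78340357-78390531), Zfp42 in one of 11 (8:43283694-43333892), and Fgf4, a known SOX2 and OCT4 target, had 2 clusters with 18 regions. Id1, a target of BMP signalling, lay in a cluster of 11 (2:152707579-152742139), Zic2, a zinc finger factor, in one of 16 (14:122449864-122491178), and Klf9 had 2 clusters with 24 regions, one over the gene (19:23121347-23170113) and one of 14 regions (19:23036466-23105528) at 35.7 kb. Esrrb, Klf5, Prdm14, Sall4, Dppa3, Tdgf1, Utf1 and Tet1 had clusters of 6 to 10 regions.

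Several core pluripotency genes fell just outside the rule. Nanog, Klf2, Klf4, Tfcp2l1, Stat3 and Rif1 each had a largest locus of 5 regions within 50 kb. Nanog had 14 SOX2 regions within that distance, as many as Sox2, but in shorter loci. Lin28a and Tet2 had a largest locus of 4, and Phc1, Nr5a2 and Tcl1 of 3.

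Other gene groups also had clusters nearby more often than protein-coding genes at large. Of the Polycomb list 12 of 20 genes had one (Wilson interval 38.7 to 78.1%), with Jarid2, Cbx7, Epop (15 regions) and Bmi1 (8 regions) among them. Of the LIF, BMP, FGF and Nodal list 13 of 30 had one (43.3%, 27.4 to 60.8), among them the feedback inhibitors Socs3 (22 regions in 2 clusters) and Smad7 (12 regions), and the FGF-responsive factor Etv5 (13 regions). Of the neural list 9 of 20 had one (45.0%, 25.8 to 65.8), such as Pax6 (9 regions), Nes and Dlx2 (7 regions each). Trophoblast genes had 5 of 15 and ribosomal protein genes, a housekeeping comparison, 8 of 25 (32.0%, 17.2 to 51.6). Mesoderm and endoderm genes had 2 of 20 (10.0%, 2.79 to 30.1), Eomes and Hand1, which is near the 12.4% of all genes.

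**Figure D2:**
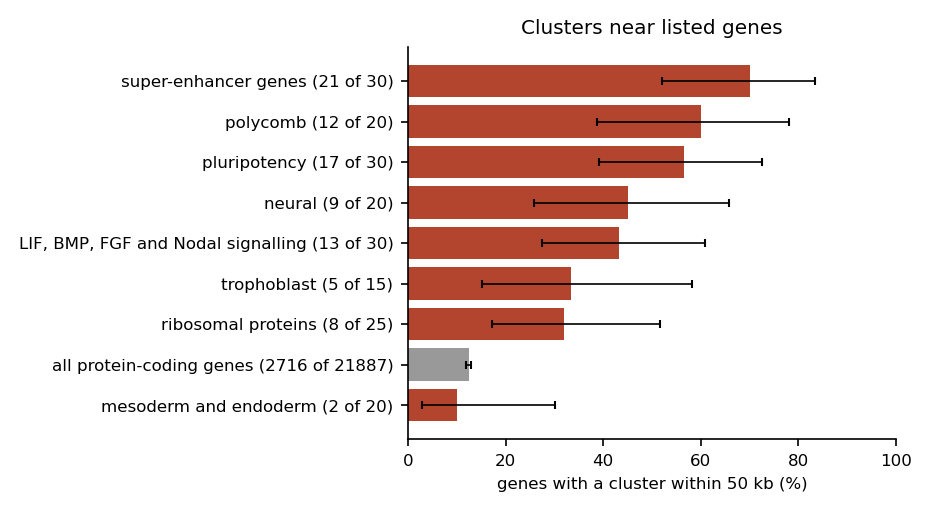
Share of the genes of each list that had a dense SOX2 cluster within 50 kb of the gene body (bars, in percent) with 95% Wilson intervals, and the same share of all protein-coding genes in grey. Super-enhancer genes had the highest share, 70.0%, and mesoderm and endoderm genes, at 10.0%, lay near the 12.4% of all protein-coding genes.

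SOX2 regions of clusters were rarely called in mitotic cells. Mitotic SOX2 replicate 1 called 371 of the 7139 cluster regions (5.20%, 4.71 to 5.74), where it called 3.37% of all SOX2 regions, and replicate 2 called 82 (1.15%, 0.926 to 1.42), where it called 0.755% of all. Both libraries called 74 (1.04%, 0.827 to 1.30) of the cluster regions and 0.675% of all regions. The mean share of cluster regions was 3.17% ± 2.86 (SD, n = 2), where replicate 1 gave the higher value. In loci of 1 region the shares were 2.65% and 0.573%, and in loci of 2 to 5 regions 3.38% and 0.777%. Clusters thus held 13.8% of all SOX2 regions but 21.3% and 21.0% of those called in replicates 1 and 2.

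The higher share moved with the width of the regions. When the other SOX2 regions were weighted to the strength classes of the cluster regions, their shares were 2.93% and 0.659%. Weighted to the classes of strength and width together, they were 4.51% and 0.978%, close to the 5.20% and 1.15% of cluster regions, and with place and CTCF overlap added they were 4.52% and 1.09%. Without chromosome 13 the cluster shares were 4.69% and 1.06%, against 4.50% and 0.998% at equal strength and width. With place and CTCF overlap added they were 4.48% and 1.104%, so that in replicate 2 the cluster share was then the lower one. A wide region has more bases that a mitotic peak can touch, and the part of width in the difference was not tested beyond these weighted shares, which were chosen after the data were seen.

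The difference between clusters and other loci was widest among the strongest regions. SOX2 regions were put into 5 classes of equal size by strength. In the strongest class, mitotic replicate 1 called 198 of 1364 cluster regions (14.5%, 12.7 to 16.5) and 6.89% of other regions, and replicate 2 called 69 (5.06%, 4.02 to 6.35) and 2.60%. In the weakest class the shares were 0.629% against 0.932% in replicate 1 and 0.114% against 0.116% in replicate 2. In replicate 1 the share was higher in each stronger class of cluster regions (0.629, 1.498, 3.47, 7.23 and 14.5%), while in replicate 2 calls were nearly confined to the strongest class, with 69 of 82. In the strongest class, replicates 1 and 2 called 8.13% and 3.03% of regions in loci of 2 to 5 regions, and 5.22% and 2.01% in loci of 1 region. These strength classes were not matched for width, and cluster regions were wider.

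**Figure D3:**
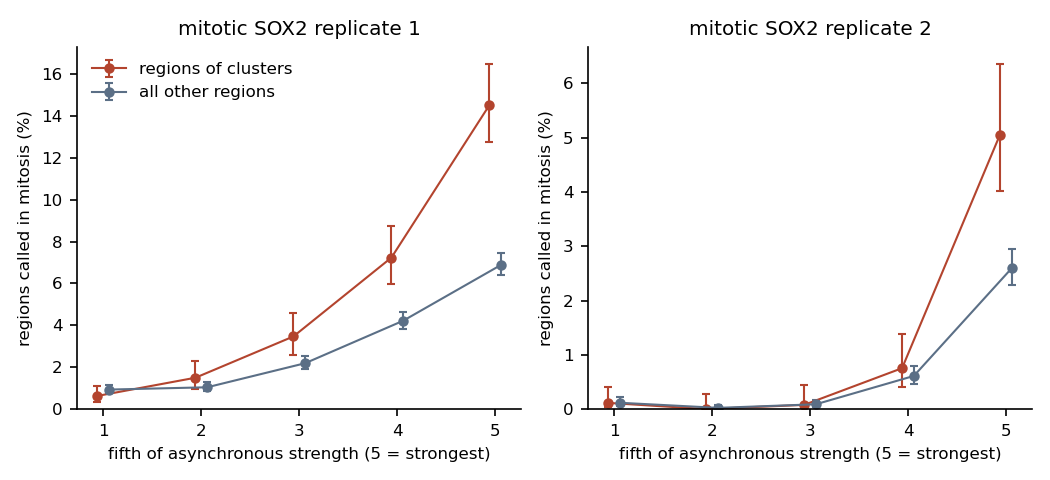
Percent of SOX2 regions called in mitotic replicate 1 (left) and 2 (right), by class of asynchronous strength (1 weakest, 5 strongest), for regions of clusters (red) and all other regions (grey-blue), with 95% Wilson intervals. In the strongest class 14.5% and 5.06% of cluster regions were called, against 6.89% and 2.60% of other regions. The classes were not matched for width, and the vertical scales differ between the panels.

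In most clusters no region was called in mitosis, and the share called fell with the rank of a region within its cluster. At least 1 region was called in either mitotic library in 279 clusters (31.2%, 28.3 to 34.3), where 5.58% of all stitched loci had one. Clusters hold more regions than other loci, so this share is bound to be higher. Replicate 1 called 1 region in 211 clusters, 2 in 48 and 3 or more in 15, and replicate 2 called 1 in 72 and 2 in 5. The strongest region of a cluster was called in 14.8% (replicate 1) and 5.93% (replicate 2) of clusters, the second in 9.96% and 2.13%, and the third in 5.82% and 0.559%. Regions of lower rank were called in 2.20% and 0.112%. The strongest regions were 132 of the 371 called in replicate 1 and 53 of the 82 called in replicate 2. Of the 74 regions called in both libraries, 48 were the strongest of their cluster, 19 the second, 5 the third and 2 lower. Outermost regions were called in 4.31% and 1.29% and inner ones in 5.49% and 1.103%, so the libraries gave opposite orders.

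**Figure D4:**
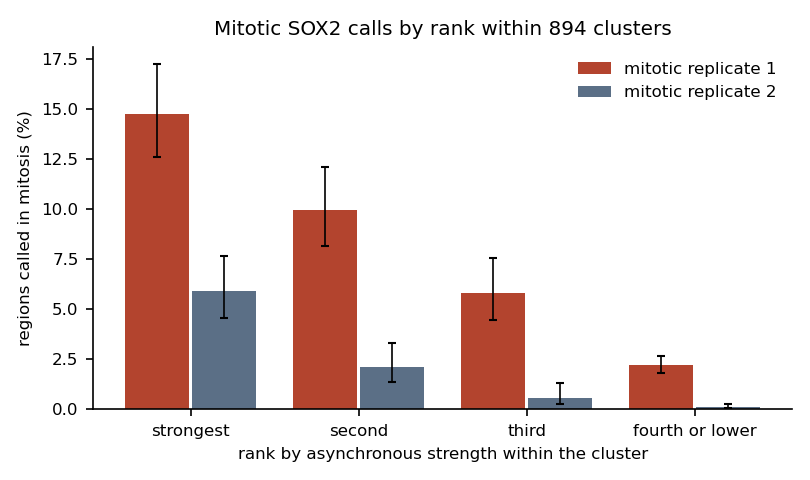
Percent of regions called in mitotic SOX2 replicate 1 (red) and 2 (grey-blue) by rank of asynchronous strength within each of the 894 clusters, with 95% Wilson intervals. The share falls from 14.8% to 2.20% in replicate 1 and from 5.93% to 0.112% in replicate 2.

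The region with the highest mitotic fold lay at the edge of the Klf13 cluster, 17.1 kb outside Klf13, which encodes a Krüppel-like factor. At that region (7:63956044-63958391) the folds were 30.02 and 31.1 in the asynchronous and 20.9 and 16.2 in the mitotic libraries, the highest fold of each mitotic list. The other 6 regions of that cluster were called in neither mitotic library. Other regions with high folds in both mitotic libraries lay near Spen, a transcriptional repressor (4:141545085-141547649, 14.6 and 19.9 asynchronous, 11.6 and 12.2 mitotic), near Lrrc74a in the cluster of 22 regions (21.3 and 21.8 asynchronous, 9.28 and 11.98 mitotic), and inside Arid5b, an ARID-domain regulator (33.8 and 32.2 asynchronous, 9.98 and 9.43 mitotic). Two-library folds were also high inside Midn (17.4 and 13.0 asynchronous, 10.7 and 9.66 mitotic) and at an end of Pipox (22.8 and 29.9 asynchronous, 13.8 and 8.74 mitotic). Folds were set against the background of each library by itself, so they do not measure a change in occupancy between libraries.

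At Pou5f1 the mitotic calls lay upstream of the promoter. The cluster there (17:35484977-35514710) held 8 regions, of which replicate 1 called 2 and replicate 2 called 1. The region called by both (17:35503555-35506385) had folds of 26.9 and 34.0 in the asynchronous and 9.54 and 4.24 in the mitotic libraries. Its strongest asynchronous summits lay 1974 and 1968 bp before the start of transcription, where the distal enhancer of Pou5f1 is known to lie, and the mitotic peaks covered none of the 250 promoter bases shown above. The neighbouring region (17:35501758-35503373) was called in replicate 1 alone, with a fold of 4.55.

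Near pluripotency and super-enhancer genes as a whole, Pou5f1 among them, mitotic calls were about as frequent as in other clusters. The 36 clusters within 50 kb of a gene of either list held 347 regions, of which replicate 1 called 18 (5.19%, 3.31 to 8.05) and replicate 2 called 3 (0.865%, 0.294 to 2.51), against 5.20% and 1.16% in all other clusters. The 3 regions called in both lay at Pou5f1, at Klf13 and at Trim28, a corepressor of retroviral silencing, at an end it shares with a predicted gene (7:13022590-13024244, 21.0 and 17.7 asynchronous, 5.73 and 6.88 mitotic). At Sox2, 1 of 12 regions was called, in replicate 1 alone (3:34647295-34649203, fold 3.402), although its asynchronous folds of 6.42 and 4.87 were far below the cluster's highest, 25.3 and 30.9. At Tbx3, Mycn, Zic2 and Sall4, 1 region each was called in replicate 1 and none in replicate 2. No region was called in the clusters at Zfp42, Esrrb, Klf5, Prdm14, Tet1, Otx2, Fgf4 or Id1. At Jarid2, replicate 1 called 2 of 23 regions, with folds of 4.34 and 4.29.

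At the Hoxb cluster, the called region was the one over the Hoxb1 promoter. This region (11:96364988-96366416) had folds of 16.3 and 13.8 in the asynchronous and 4.79 and 4.33 in the mitotic libraries, and was the only one of 18 called in either. The peak of replicate 1 covered all 250 bases printed for Hoxb1, and that of replicate 2 covered the 89 in capitals. Among Polycomb genes, a region at the shared cluster of Cbx2 and Cbx8 was called in both libraries (5.29 and 5.20).

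The 3 clusters with the most calls in mitotic replicate 1 lay in the tRNA and histone gene region of chromosome 13. Replicate 1 called 11 of 17 regions at Zfp184, a zinc finger gene (13:21881497-21945808), 8 of 24 at H2bc6, and 7 of 15 at Btn1a1 and Abt1 (13:23395556-23471589), and replicate 2 called 1, 2 and 2 of them. Clusters 6.255 kb from Gpx5 (16 regions) and at Trim27 (6 regions) nearby had 4 and 3 called in replicate 1 and 1 each in replicate 2. By regions called in both libraries, 4 clusters tied with 2 each. These were H2bc6, Btn1a1 and, on chromosome 11, Bahcc1 (8 regions, 11:120230520-120270406) and Ube2g1, a ubiquitin-conjugating enzyme gene (6 regions, 11:72569267-72608831), where replicate 1 called 3 and 2 regions. One region called in both also lay in the cluster 14.6 kb from Ptma (1:86487142-86511964), which encodes prothymosin alpha. Another lay in the cluster at Ubtf (11:102267505-102347376), a factor of ribosomal RNA transcription. Replicate 1 called 3 of 6 and 2 of 16 regions in these clusters. In the H2bc6 cluster 6 of the 8 called regions lay within 1 kb of a tRNA gene, and the region over the H2bc6 promoter was called in replicate 1 alone (fold 4.32; 15.1 and 14.6 asynchronous). In all clusters, 107 regions lay within 1 kb of a tRNA gene, and replicate 1 called 49 of them (45.8%, 36.7 to 55.2) and replicate 2 called 8 (7.48%, 3.84 to 14.1). Outside clusters it was 42.9% and 12.2% of 98 such regions, with intervals (33.5 to 52.7% and 7.15 to 20.2%) that overlap those of the cluster regions. Without regions near tRNA or histone genes the cluster shares were 4.54% and 1.06%, against 2.98% and 0.666% elsewhere. When the other regions of this set were weighted to equal strength and width, their shares were 4.31% and 0.937%, close to those of clusters.

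Near the tRNA genes, SOX2 regions called in mitosis often also overlapped a mitotic CTCF peak. The mitotic peaks of the 2 factors were not set against each other directly. Of the 49 cluster regions near tRNA genes that mitotic SOX2 replicate 1 called, 40 overlapped a peak of mitotic CTCF replicate 1 (81.6%, 68.6 to 90.0) and 29 one of replicate 2. Of the 58 such regions it did not call, 26 and 16 did. Over all cluster regions the shares were 10.5% and 7.91%. Outside clusters, 37 and 30 of the 42 called regions near tRNA genes overlapped such peaks (88.1% and 71.4%), so this was not particular to clusters. For 8 of the 49, neither asynchronous CTCF list had a peak, and 3 of these 8 had one in mitotic CTCF replicate 1. The part of signal that both antibodies share was not tested.

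Over all cluster regions, the place relative to genes and CTCF went with the calls. At gene ends that overlapped CTCF, replicate 1 called 17.8% of cluster regions and 15.1% of other regions, and at gene ends without CTCF 7.58% and 7.92%. In replicate 2 these shares were 2.43% and 2.97% with CTCF and 2.20% and 1.24% without, so the gap between cluster regions with and without CTCF was small there and other regions had the higher share with CTCF. Outside protein-coding genes, replicate 1 called 10.6% of cluster regions on CTCF and 4.65% of others, and 2.83% and 0.844% of those off CTCF. Replicate 2 called 3.61% and 1.37% on CTCF and 0.451% and 0.289% off it. Regions at tRNA genes can count as outside protein-coding genes. Replicate 1 called 49 cluster regions and 42 others within 1 kb of a tRNA gene, and their part in these gaps was not tested. The 74 cluster regions called in both libraries overlapped CTCF in 58.1% and gene ends in 39.2%, against 23.8% and 17.7% of the 6760 called in neither. Outside clusters, 54.5% and 50.9% of the 275 regions called in both did.

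CTCF overlapped cluster regions more often than SOX2 regions at large. Of the cluster SOX2 regions, 1829 (25.6%, 24.6 to 26.6) overlapped a CTCF region found in both asynchronous libraries, against 20.3% of all SOX2 regions. Cluster regions were also wider (median 769 bp against 658 bp of all), and the part of width in this difference was not tested. The overlap was as frequent in the outermost regions of clusters (25.6%) as in the inner ones (25.6%), and reached 32.2% in the strongest. CTCF regions lay inside 808 clusters (90.4%), and 86 had none. Among all stitched loci 30.8% held one, and among loci of 2 to 5 regions 50.3%. Longer loci are bound to hold CTCF more often. The protocadherin gamma cluster had the most SOX2 regions on CTCF, 13 of 18, followed by the H2bc6 cluster (10 of 24) and that of Trim7, Rack1 and Irgm1 (10 of 15, 11:48771503-48871701). At Dpf1 it was 9 of 12 (7:29280382-29320494), and in a second protocadherin gamma cluster 9 of 9 (18:37655524-37707501). At the other extreme, a cluster of 12 regions (14:76652752-76699445) whose nearest protein-coding gene, Serp2, was 95.7 kb away held no CTCF region. The same was true of clusters of 11 regions at Etnk1, 10 at Epha4, an ephrin receptor gene, 10 at Rai14 and 9 at Vangl1 and Casq2.

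CTCF was denser inside clusters than around them, and the density outside showed no peak at the edge. Inside there were 0.946 CTCF regions per 10 kb, against 0.808 inside loci of 2 to 5 regions and 2.04 inside loci of 1 region. Outside clusters, there were 0.619 in the first 5 kb, 0.558 from 5 to 10 kb and 0.565 from 80 to 100 kb. Around loci of 1 region the values from 0 to 100 kb were 0.269 to 0.312, and around loci of 2 to 5 regions 0.375 to 0.425. In the 792 clusters of 20 kb or more, the density was 1.11 in the 5 kb inside each edge, where a SOX2 region lies by construction, 0.883 from 5 to 10 kb and 0.873 further in. Gene ends moved with CTCF, with 0.332 per 10 kb in the first 5 kb outside clusters and 0.226 outside loci of 1 region, and the part of gene density was not tested.

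**Figure D5:**
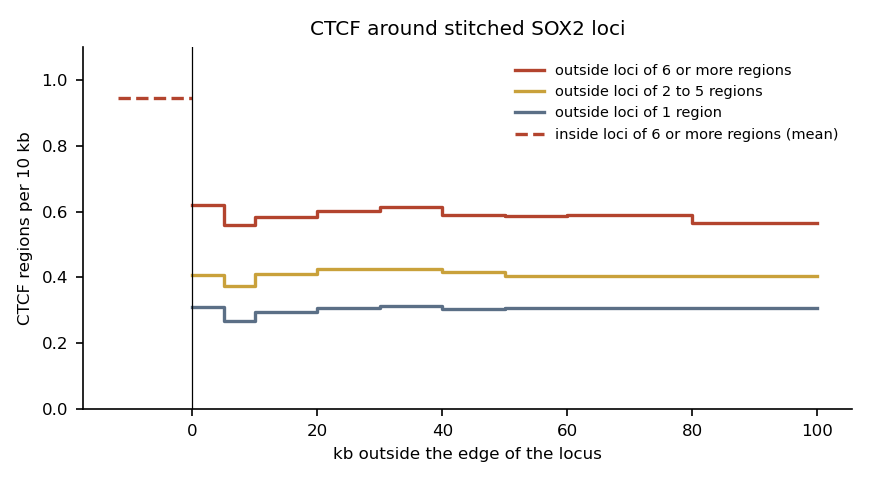
CTCF regions per 10 kb by distance outside the edge of stitched SOX2 loci, for clusters (red), loci of 2 to 5 regions (yellow) and loci of 1 region (grey-blue), with the mean density inside clusters as a dashed line. Outside clusters the density stays between 0.558 and 0.619 over 100 kb, above the other loci at every distance, and inside it is 0.946.

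Clusters had CTCF within 10 kb of both edges more often than other loci. It lay there for 218 clusters (24.4%, 21.7 to 27.3), where 14.8% of all stitched loci had it, and for 13.9% of loci of 1 region and 15.6% of loci of 2 to 5 regions. A CTCF region that reaches over an edge counts for it. CTCF lay at 1 edge alone in 392 clusters and at neither in 284. The nearest CTCF region lay at a median of 14.0 kb from a cluster edge, against 31.6 kb for loci of 1 region. With CTCF regions called in both mitotic libraries, both edges had one in 30 clusters (3.36%, 2.36 to 4.75). This compares with 2.43% of loci of 2 to 5 regions (2.14 to 2.76) and 4.05% of loci of 1 region. In loci of 1 region, 1 CTCF region that reaches over the whole locus counts at both edges. The cluster interval holds the shares of the other classes, so clusters did not stand out by this measure. Measured to its midpoint, the nearest CTCF region lay 4.88 and 0.257 kb outside the edges at Klf13 and 0.449 and 20.2 kb at Pou5f1. It was 57.3 and 2.80 kb at Jarid2, and 72.4 and 14.9 kb at Tbx3. The CTCF region at 0.449 kb reached over the edge into the Pou5f1 cluster.

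Mitotic CTCF calls inside clusters were about as frequent as elsewhere. Mitotic CTCF replicates 1 and 2 called 34.0% (32.4 to 35.7) and 27.4% (25.9 to 29.0) of the 3139 CTCF regions that overlapped clusters, where they called 33.0% and 25.4% of all CTCF regions. Both called 26.1%, where both called 24.5% of all. On a SOX2 region of a cluster the shares were 39.2% and 31.3%, and between the SOX2 regions 26.7% and 21.9%. Outside clusters they were 41.4% and 32.6% on SOX2 regions and 31.5% and 24.01% off them, so SOX2 overlap went with a higher share in both places. The asynchronous strength of these CTCF regions moved with it, with a median percentile of 47.5 on and 40.2 between SOX2 regions inside clusters, and its part was not tested. Among 5 classes of CTCF strength the order was mixed. In the strongest class 87.4% and 79.4% were called inside clusters, against 83.1% and 72.5% elsewhere, while in the middle class it was 18.6% and 10.2% inside, against 20.6% and 11.7% elsewhere. The mean difference between CTCF regions inside clusters and elsewhere was 1.56 ± 0.717 percentage points (SD, n = 2), and it was -0.321 without asynchronous CTCF replicate 1 and -0.265 without replicate 2. With 5 kb stitching it was -1.08 and without SOX2 regions near gene ends -1.46, so its direction did not hold under these settings.

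Across libraries, clusters held 4002 and 3981 asynchronous and 1199 and 928 mitotic CTCF peaks, or 3991.5 ± 14.8 against 1063.5 ± 191.6 (SD, n = 2 each), which is 3.75-fold fewer in mitosis. The groups did not overlap (two-sided exact permutation test, p = 0.333, the smallest this design allows; adjusted over 3 tests 0.333). As a share of each list they were 5.86% and 5.85% against 5.95% and 6.05%, a difference of 0.146 percentage points (exact permutation p = 0.333), and the difference was -0.116 when SOX2 regions near gene ends were left out. Inside clusters, 30.7% ± 4.69 (SD, n = 2) of CTCF regions and 3.17% ± 2.86 (SD, n = 2) of SOX2 regions were called in mitosis, a difference of 27.5 percentage points (exact permutation p = 0.333), and the values of the libraries did not overlap. Over the whole genome the shares were 33.0% and 25.4% of CTCF regions and 3.37% and 0.755% of SOX2 regions. The gap inside clusters was therefore near that of all regions. The factors also differ in antibody and background coverage, and the part of these was not tested. At Tbx3, the cluster of 14 SOX2 regions held 13 CTCF peaks in each asynchronous library and 6 and 3 in the mitotic ones, beside 27 and 17 asynchronous and 1 and 0 mitotic SOX2 peaks. At Jarid2 it was 4 and 6 against 1 and 1 CTCF peaks, beside 35 and 33 against 2 and 0 SOX2 peaks.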

How the data were processed

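Of the 86 samples, the 8 SOX2 and CTCF peak lists were used, and the remaining samples were not used. The labels give the groups. The submitters' processing notes name mm10 as the build and list MACS2 2.1.1.20160309, the aligner BWA 0.7.17, CASAVA 1.4 and SAMtools. Each list belongs to 1 library, and a peak has a fold, a p-value, a q-value and a score. The fold enrichment at the summit was deposited by the authors as a ratio to local background. The −log10 p-value and −log10 q-value were deposited by the authors from the peak caller. The score is, as deposited, the −log10 q-value multiplied by 10 and cut to a whole number, and was not used. Read totals are not given in these lists, so depth was estimated as background coverage.

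Merging, stitching and overlaps (1 bp) were computed with Python 3.11.15, numpy 2.4.6 and scipy 1.17.1, and figures with matplotlib 3.10.9. Stitching was tested on simulated lists and checked against bedtools 2.31.1. CTCF regions have a peak in both asynchronous CTCF libraries. A region was called in mitosis where a mitotic peak overlapped it. Genes are those of a RefSeq table on GRCm38.p6 (21887 protein-coding, 408 tRNA genes), which gives no strand. All 190 list entries matched a gene, and sequences come from the RefSeq promoter and microRNA tables.

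Members and gene lists were chosen with earlier results of these data known. The clusters named are the 10 with the most regions, the 10 with the most regions called in both mitotic libraries, 5 each with the most CTCF overlap and with none, and those near pluripotency or super-enhancer genes. Also named are loci at the threshold, clusters near genes of the other lists and clusters with regions of high mitotic fold. The 2 against 2 libraries were compared by two-sided exact permutation tests. Same-numbered libraries are not stated to share a batch or day, and a paired alternative was run. Other stitching distances, region minimums, peak thresholds, edge windows and left-out libraries were tried.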

Additional observations from a re-analysis of the deposited data

How the results depend on the processing

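The number of clusters depends strongly on the rule. It was 189 with 5 kb and 1876 with 25 kb stitching, 2658 with at least 4 and 173 with at least 10 regions, 388 with a −log10 q of at least 5, 43 with a fold of at least 5, 3558 with regions of either asynchronous library, and 240 without regions near gene ends. It was 1584 without asynchronous SOX2 replicate 1 and 3170 without replicate 2. The share of clusters with CTCF at both edges, 24.4%, was 29.6% and 20.3% with 5 and 25 kb stitching, 20.9% and 27.7% with at least 4 and 10 regions, 20.6% and 14.0% under the q and fold thresholds, 18.75% without gene ends, and 12.2% and 52.9% with windows of 5 and 25 kb. It ranged from 18.9 to 29.0% with 1 library left out. The share of CTCF regions called in mitosis, 30.7%, was 25% with the fold threshold and 23.2% with regions of either library, and ranged from 24.9 to 34.0% with 1 library left out. Its difference from elsewhere, 1.56 points, was -1.08 with 5 kb stitching and -1.46 without gene ends, and ranged from -0.321 to 2.94 with 1 library left out (-0.321 and -0.265 without asynchronous CTCF replicates 1 and 2). The difference in the share of CTCF peaks inside was -0.116 without gene ends. Clusters overlapped a gene in 95.7% when all genes of the table counted, where 67.6% of all stitched loci did. With a distance of 10 kb, 5 ribosomal protein genes had a cluster. The cause of these changes was not tested.

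The excess of mitotic SOX2 calls in clusters over other regions, 1.29 points, ranged from 0.457 to 2.12 with 1 library left out. Under alternatives chosen after seeing the data it was 1.38 at equal strength, 0.429 at equal strength and width, and 0.370 with place and CTCF added. With no such weighting it was 0.973 without tRNA and histone gene regions and 0.961 without chromosome 13. With the replicate block, a sign-flip test over the 2 pairs gave p = 0.5, the smallest it allows, for the exact tests of CTCF peaks inside (-2928), their share (0.146) and the mitotic shares (27.5). Background coverage was lower in the second SOX2 replicates, and its part in their fewer calls was not tested.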
